A study of Mus musculus with 4 samples.

Results

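The Kcn genes encode the pore-forming and accessory subunits of potassium channels, and their transcripts were followed in brain septal tissue of wild-type (WT) mice and of TCRb-/- mice, whose T cells lack the beta chain of their receptor. Members were all rows of the deposited expression tables whose gene symbol starts with Kcn, which gave 84 of 15409 gene rows. By symbol they were sorted into 35 voltage-gated pore genes, 13 inward rectifiers (Kcnj), 11 tandem-pore (K2P) genes (Kcnk), 8 genes of a calcium-activated class, 14 accessory subunits and 3 non-coding transcripts. The calcium-activated class includes the sodium-activated Kcnt1 and Kcnt2, and Kcnu1, which was placed there by symbol alone. Such mice form no T cells of the alpha beta lineage. All mice of both genotypes underwent restraint on 3 days, 30 min each time, with tissue taken 1.5 h after the final restraint, so that no group was unstressed. Each of the 4 libraries was made from the septal tissue of 4 to 5 pooled mice, with 1 TCRb-/- and 1 WT library in experiment 1 and the same in experiment 2. The experiment is given as the batch in the labels, and the sources used here do not give strain, sex or age. A replicate is a pool, and p-values measure only the spread between such pools. Within an experiment the pools are 1 TCRb-/- and 1 WT, so the SDs and p-values given for the experiments include the genotype difference as spread.

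Potassium channels carry potassium out of the cell at most membrane potentials and so set the resting potential and end each action potential. Voltage-gated channels open on depolarization, inward rectifiers pass current best near rest, and tandem-pore channels give a steady leak. Most channels of the calcium-activated class open when calcium or sodium enters the cell. Accessory subunits have no pore and change how the pore subunits are gated or brought to the membrane. In the forebrain, neuron types differ in the channels they use, and glia and the epithelium of the choroid plexus, which secretes cerebrospinal fluid, have channel genes of their own.

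What the pore genes share is the stretch that lines the selectivity filter, and it is shown here for 6 genes that the results return to. Capitals mark an in-frame run of codons on the coding strand that begin, in turn, with AC, any letters, GG, TA (or, in the other form, TT) and GG, each with any last base, in 45 bases of the coding sequence of the GENCODE M21 annotation (GRCm38). K2P genes carry the stretch more than once, which is why Kcnk2 and Kcnk3 have a second line.
Kcna1: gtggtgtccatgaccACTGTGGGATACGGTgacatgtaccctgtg
Kcnj13: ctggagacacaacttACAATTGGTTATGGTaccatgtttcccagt
Kcnj4: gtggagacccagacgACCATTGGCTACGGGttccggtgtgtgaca
Kcnk2, first: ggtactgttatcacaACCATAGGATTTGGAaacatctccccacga
Kcnk2, second: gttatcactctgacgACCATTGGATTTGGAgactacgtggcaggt
Kcnk3, first: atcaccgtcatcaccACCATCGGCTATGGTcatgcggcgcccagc
Kcnk3, second: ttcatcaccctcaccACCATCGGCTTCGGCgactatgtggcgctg
Kcnma1: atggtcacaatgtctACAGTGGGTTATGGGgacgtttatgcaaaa
Either form was found in frame in 28 of 35 voltage-gated genes, 12 of 13 inward rectifiers, 11 of 11 K2P genes and 5 of 8 calcium-activated genes. It was found in 0 of 14 accessory genes. The voltage-gated genes without a match were Kcnh1, Kcnh2, Kcnh3, Kcnh4, Kcnh6, Kcnh7 and Kcnh8, all of the Kcnh family, and the others were Kcnj14, Kcnn1, Kcnn2 and Kcnn3. In 8 of the 11 K2P genes there were 2 or more matches, against 0 genes of the other classes. A match describes the letters only, and a gene without one may use other codons or residues at that place.

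Library totals ran from 19988137 to 26210790 reads, and levels are given as CPM, reads scaled to a common library total. Trbc2, a constant segment of the deleted beta chain locus, had 0 reads in both TCRb-/- libraries and 169 and 86 reads in the WT libraries, as the labels give it. All 15 septum marker genes on the list used here were present, with summed levels from 708 to 762 CPM over the 4 libraries. Dgkg (208 to 245 CPM) and Sst (168 to 204 CPM) made up most of each sum. The sums for markers of neighbouring regions differed far more. Striatum markers (16 genes) summed to 6317 CPM in TCRb-/- replicate 1 but 1506 CPM in replicate 2, and to 5659 and 3370 CPM in the WT pools. Choroid plexus markers (12 genes) summed to 2147 and 6883 CPM in TCRb-/- and to 1314 and 4187 CPM in WT. None of these markers was at 0 reads in any library. TCRb-/- replicate 2 stood apart: it had the lowest level of all 16 striatum markers and the highest level of all 12 choroid plexus markers. In bulk tissue, fewer cells of a type and less RNA per cell cannot be told apart.

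All 84 members had reads in every library, and their mean levels ran from 0.415 to 280 CPM. Of them, 9 reached 100 CPM on average and 30 stayed under 10 CPM. To compare genes with each other, CPM was divided by the length of the merged exons in kilobases. On that scale Kcnip2, which encodes a calcium-binding subunit of the A-type channels of the Kcnd family, was highest with a mean of 80.6 CPM per kb. Kcnk1, a leak channel gene, followed with 54.2 CPM per kb. The accessory genes Kcnip4 (35.8 CPM per kb), Kcnab2 (35.1) and Kcnip3 (33.6) came next, and their levels overlapped between libraries. Accessory genes held 41.1% to 43.5% of the summed Kcn level per length, voltage-gated genes 27.3% to 32.9%, K2P genes 11.9% to 14.7%, inward rectifiers 8.79% to 13.7% and calcium-activated genes 2.57% to 3.16%.

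**Figure D1:**
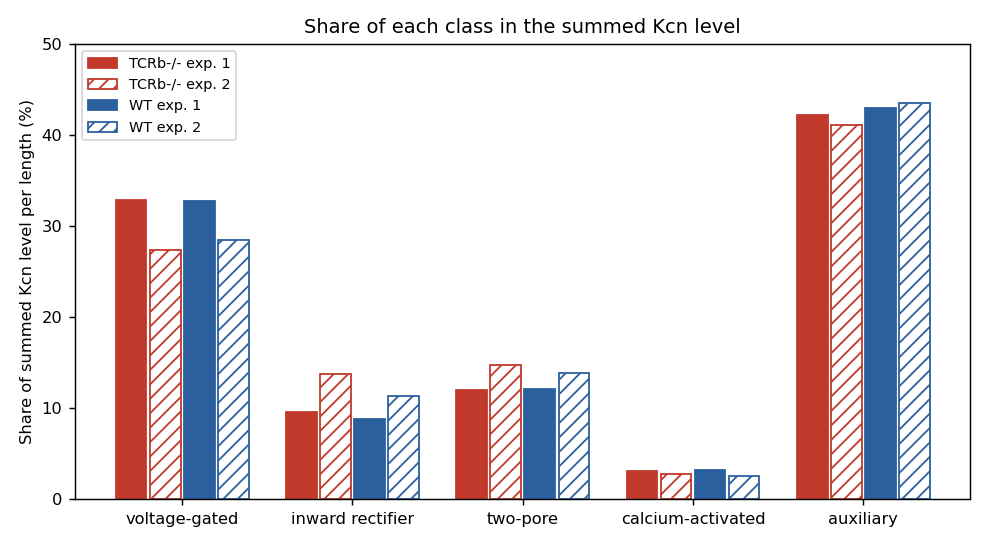
Share of each channel class in the summed Kcn level per length (y axis, percent, from 0), in the 4 libraries, with the non-coding transcripts not drawn. Red is TCRb-/-, blue WT, solid experiment 1 and hatched experiment 2, each bar 1 library with no error. The voltage-gated share is 32.9% and 32.7% in experiment 1 and 27.3% and 28.4% in experiment 2, and the inward rectifier and two-pore (K2P) shares are higher in experiment 2. The K2P sum itself was 83.3 and 82.9 CPM per kb in TCRb-/- and 80.1 and 80.5 in WT (experiments 1 and 2). The inward rectifier sum was 66.9 and 76.9 CPM per kb in TCRb-/- and 58.1 and 65.8 in WT. It includes Kcnj13, the only inward rectifier called higher in experiment 2, at 11.7 and 40.7 CPM in TCRb-/- and 7.33 and 25.6 in WT. The class share without Kcnj13 was not computed. The sum of all Kcn genes was 697 and 563 CPM per kb in TCRb-/- and 661 and 582 in WT.

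The voltage-gated class was led per length by Kcna1 (mean 21.2 CPM per kb), a delayed rectifier of axons, Kcnf1 (15.0), which forms no channel alone and modifies others, and Kcnd2 (14.0), the A-type channel of dendrites. Kcnh8 was the lowest, at 0.299 CPM per kb. Among the inward rectifiers, Kcnj13 (16.8 CPM per kb), Kcnj9 (14.3) and Kcnj4 (12.5) were highest and Kcnj14 (0.372) was lowest. That order is of means over the 4 libraries. In both libraries of experiment 1 Kcnj13 lay below Kcnj9 and Kcnj4 on this scale, and in both of experiment 2 above them. Kcnk1, Kcnk13 (7.87) and Kcnk2 (6.62) led the K2P genes, whose lowest member was Kcnk9 (0.105). The sodium-activated Kcnt1 (5.35 CPM per kb) led the calcium-activated class, above Kcnn2 (3.49) and the large-conductance channel gene Kcnma1 (3.33), and Kcnn4 was lowest at 0.167. Kcne3 was the lowest accessory gene, at 0.233 CPM per kb. The non-coding transcripts Kcnmb4os2 (1.18 CPM per kb), Kcnd3os (0.838) and Kcnq1ot1 (0.0320) were all low.

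**Figure D2:**
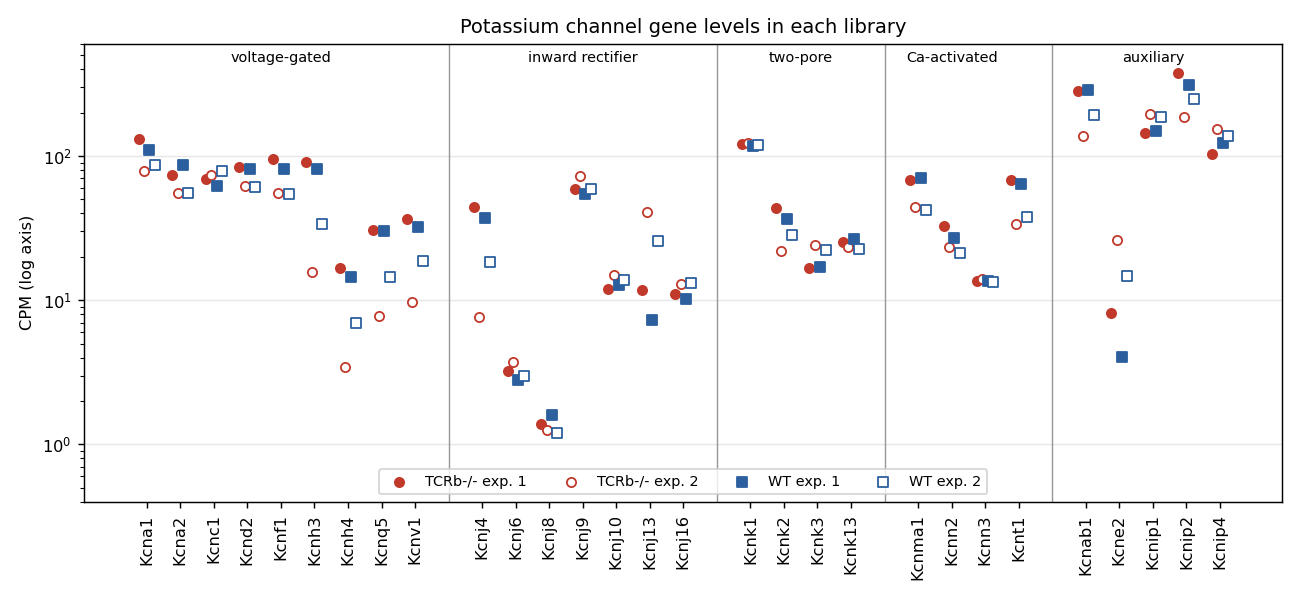
Level of Kcn genes in each library (y axis, CPM on a log axis, x axis the genes by class), with red circles for TCRb-/-, blue squares for WT, filled symbols for experiment 1 and open symbols for experiment 2. Kcnh3, Kcnh4, Kcnq5, Kcnv1 and Kcnj4 have their lowest open symbol in TCRb-/- experiment 2, Kcnj13 and Kcne2 have their highest there, and the 4 symbols of Kcnk1 and of Kcnn3 lie on top of each other.

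The largest differences among the Kcn genes lay between the experiments and not between the genotypes. Both libraries of experiment 2 had less Kcnh3, Kcnj4, Kcnh4, Kcnq5 and Kcnv1 RNA and more Kcnj13 and Kcne2 RNA than both of experiment 1. Experiment 2 was compared with experiment 1 by limma on log2(CPM + 1), with Benjamini-Hochberg adjustment over the 13912 genes that averaged 1 CPM or more. Of the 84 members, 79 were above that filter. Kcne3, Kcne4, Kcnn4, Kcnk5 and Kcnk7 were not tested. At an adjusted p under 0.05, limma called 31 of the 79 (39.2%), against 23.7% of all genes. Lower in experiment 2 were 25 (31.6%, against 14.7% of all genes), and 6 were higher (7.59%, against 8.95%). The fold of mean CPM between the experiments ran from 1.26 to 3.48 among the lower genes and from 1.29 to 3.48 among the higher ones. Leaving out TCRb-/- replicate 1 reduced the count to 20, with 17 lower and 3 higher, and moderation without a mean-variance trend to 9, with 8 lower and 1 higher. Without the trend 22 calls were lost, at adjusted p from 0.0503 to 0.106 in limma. Kcnt1, Kcnma1, Kcnh1, Kcnf1, Kcna4, Kcng1 and, as the 1 higher gene, Kcnmb2 were among those still called. Each other Kcn gene described below as fallen or risen lost its call in that fit. Without TCRb-/- replicate 2, the library that stood apart, 28 were called, 25 of them lower. Under quantile scaling 1634 of 3227 called genes of the whole table were higher in experiment 2, against 1245 of 3292 here, while the Kcn genes were again 6 higher and 25 lower.

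Voltage-gated pore genes made up most of the lower calls. Of 35 tested, 16 fell, 0 rose and 19 did not pass, and their median difference was -0.37 (log2), against -0.03 over all genes. Of 13 inward rectifiers, 2 fell and 1 rose (median 0.19). Of 9 K2P genes, 1 fell and 1 rose (median 0.03). Of 7 calcium-activated genes, 2 fell and 0 rose (median -0.19). Of 12 accessory genes, 4 fell and 4 rose (median 0.04), and 0 of 3 non-coding transcripts passed. The called share was 45.7% for voltage-gated, 66.7% for accessory and 28.6% for calcium-activated genes. For inward rectifiers it was 23.1% and for K2P genes 22.2%, against 23.7% of all genes. These are counts, shares and medians beside the background, and no test of one class against another was made. In 37 of the 79 genes both libraries of experiment 2 lay below both of experiment 1. That is a larger share than the 37.2% of all genes (5180 of 13912). In 15 of the 79 they lay above, a smaller share than the 30.1% of all genes (4181 of 13912). Merged exons had a median length of 5.44 kb in the genes that fell, 3.38 kb in those that rose and 4.17 kb in those not called. Across the tested Kcn genes, the difference between experiments had a Spearman rho of -0.32 with that length, and -0.40 across all tested genes, as a description over genes that share the 4 libraries. The part of length in the class counts was not tested.

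**Figure D3:**
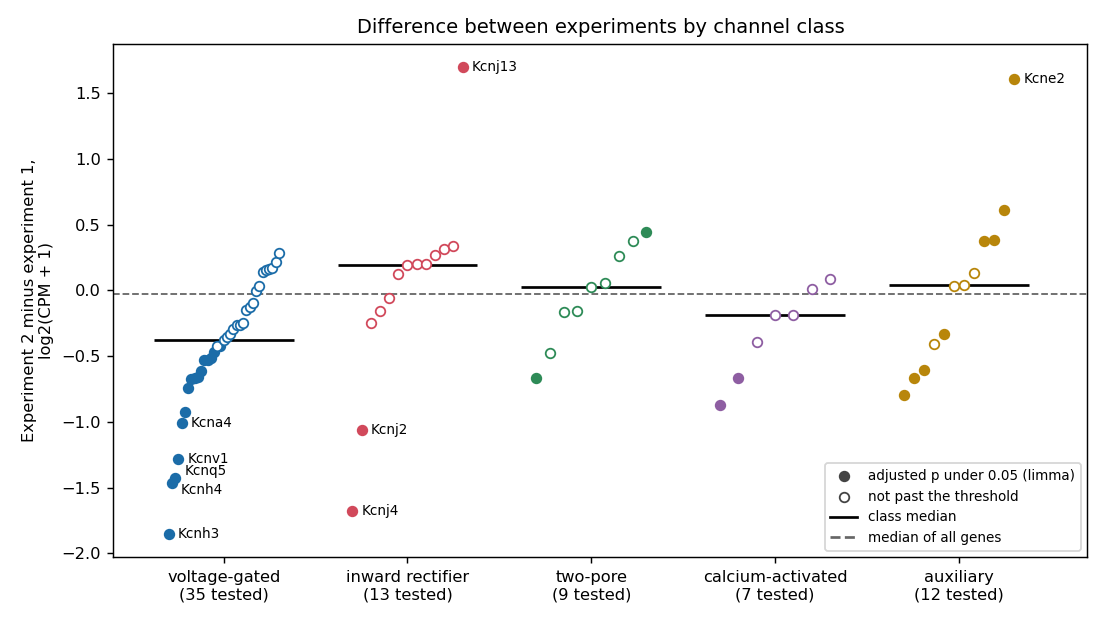
Difference between experiments for each tested Kcn gene except the non-coding transcripts (y axis, experiment 2 minus experiment 1 in log2(CPM + 1), x axis the channel classes). Filled points passed an adjusted p of 0.05 in limma, black bars are class medians, and the dashed line is the median of all genes. The voltage-gated median lies at -0.37, Kcnh3 is lowest at -1.85 and Kcnj13 highest at 1.70.

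Kcnh3 and Kcnh4 encode slowly activating forebrain channels of the Kcnh family. Kcnh3, on chromosome 15 from 99224861 to 99242817 (GRCm38), had 91.1 CPM in TCRb-/- replicate 1 and 15.7 CPM in replicate 2, beside 81.2 and 33.8 CPM in the WT pools. The experiment means were 86.2 ± 7.04 and 24.7 ± 12.8 CPM (SD, n = 2), and limma gave a log2 difference of -1.85 (SE 0.28, adjusted p = 0.00705). Kcnh3 was lowest in TCRb-/- replicate 2, and the experiments did not overlap. Kcnh4 had 16.6 and 3.45 CPM in TCRb-/- and 14.4 and 6.98 CPM in WT, for a log2 difference of -1.47 (adjusted p = 0.00907 in limma). The other Kcnh gene that fell was Kcnh1 (-0.74), and Kcnh2, Kcnh5, Kcnh6, Kcnh7 and Kcnh8 did not pass. The call for Kcnh4 was lost without TCRb-/- replicate 1 (-1.37, adjusted p = 0.0506 in limma), and those for Kcnh3 and Kcnh4 were lost without the trend (adjusted p = 0.0516 and 0.0526).

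The Kcnq genes encode the channels of the M-current, which opens slowly and restrains repeated firing. Kcnq5 had 30.9 and 7.80 CPM in TCRb-/- and 30.0 and 14.6 CPM in WT, and fell by 1.43 on the log2 scale (SE 0.23, adjusted p = 0.00834 in limma). Kcnq3 had 21.3 and 14.0 CPM in TCRb-/- and 24.2 and 17.0 CPM in WT, for a log2 difference of -0.53. In both genes both libraries of experiment 2 lay below both of experiment 1. The call for Kcnq5 was lost without the trend (adjusted p = 0.0521 in limma). The call for Kcnq3 was lost there too (adjusted p = 0.0637 in limma), and without TCRb-/- replicate 1 (-0.62), without TCRb-/- replicate 2 (-0.40) and without WT replicate 1 (-0.44).

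Of the 6 Kcna genes, whose channels sit along axons and at their endings, 5 fell. Kcna1 had 131 and 78.8 CPM in TCRb-/- and 109 and 86.4 CPM in WT, for a log2 difference of -0.53 (SE 0.10, adjusted p = 0.0107 in limma). Kcna4, the rapidly inactivating member, changed most, with 25.5 and 11.0 CPM in TCRb-/- and 28.8 and 15.2 CPM in WT (-1.01). Kcna2 (-0.51), Kcna5 (-0.67) and Kcna6 (-0.47) also fell, and Kcna3 did not pass (-0.27). Exons of Kcna6 overlap those of Gm26673 on the other strand over 39.6% of their length. The calls for Kcna5 and Kcna6 were lost without TCRb-/- replicate 1 (-0.57) and without WT replicate 1 (-0.34), respectively. Without the trend the call for Kcna4 held (adjusted p = 0.0483 in limma), and those for Kcna1, Kcna2, Kcna5 and Kcna6 were lost (adjusted p = 0.0602, 0.0550, 0.0641 and 0.0648).

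None of the Kcnc genes passed. They encode the fast channels that let neurons fire at high rates. Kcnc1 had 69.4 and 73.5 CPM in TCRb-/- and 61.7 and 78.5 CPM in WT, for a log2 difference of 0.21 that did not pass. Kcnc2 had 23.1 and 35.3 CPM in TCRb-/- and 31.3 and 30.8 CPM in WT (0.28, not passing), and its experiments overlapped. Of the 4 Kcnc genes 0 passed, and their differences ran from 0.14 to 0.28. That they differ from the Kcna genes was not tested.

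Other voltage-gated genes that fell included Kcnd2 (-0.42) and the silent subunits Kcnf1 (-0.68), Kcng1 (-0.93) and Kcnv1 (-1.28), which modify the channels of other families. Kcnv1 had 36.7 and 9.71 CPM in TCRb-/- and 32.3 and 18.7 CPM in WT, with 34.5 ± 3.12 and 14.2 ± 6.39 CPM in experiments 1 and 2 (SD, n = 2). Kcnd2 had 84.2 and 62.3 CPM in TCRb-/- and 81.8 and 61.1 CPM in WT, and its change was alike in both genotypes (-0.43 and -0.42). The call for Kcnv1 was lost without TCRb-/- replicate 1 (-1.19, adjusted p = 0.0619 in limma). It was called at -0.84 without TCRb-/- replicate 2, a smaller difference than the reported one by over 1.5 times.

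Of the 13 inward rectifiers, 2 fell and 1 rose, a called share near that of all genes (23.1% against 23.7%). Kcnj4 and Kcnj2 encode strong rectifiers that hold neurons near rest. Kcnj4, on chromosome 15 from 79483714 to 79505241, had 44.2 and 7.65 CPM in TCRb-/- and 37.0 and 18.5 CPM in WT. The experiment means were 40.6 ± 5.09 and 13.1 ± 7.65 CPM (SD, n = 2), and the log2 difference was -1.68 (SE 0.32, adjusted p = 0.0120 in limma). TCRb-/- replicate 2 was the lowest of the 4 libraries. Kcnj2 fell by 1.06 on the log2 scale, from 8.13 to 2.45 CPM in TCRb-/- and from 7.21 to 3.98 CPM in WT. Without TCRb-/- replicate 1 the calls for Kcnj4 (-1.55, adjusted p = 0.0593 in limma) and Kcnj2 (-0.99, adjusted p = 0.0660) were lost. Kcnj4 was called at -1.09 without TCRb-/- replicate 2, and with a pseudocount of 5 CPM Kcnj2 was called at -0.63.

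Kcnj13, an inward rectifier of the choroid plexus epithelium, on chromosome 1 from 87386363 to 87394729, had 11.7 CPM in TCRb-/- replicate 1 and 40.7 CPM in replicate 2, beside 7.33 and 25.6 CPM in the WT pools. Experiment means were 9.52 ± 3.10 and 33.2 ± 10.7 CPM (SD, n = 2), a 3.48-fold rise in experiment 2 with a log2 difference of 1.70 (SE 0.25, adjusted p = 0.00663 in limma). Both libraries of experiment 2 lay above both of experiment 1. The call was lost without the trend (adjusted p = 0.0503 in limma). On the opposite strand, exons of Gigyf2 overlap 49.1% of the merged exon length of Kcnj13. The sources used here do not say whether counting used strand, so reads of the overlap cannot be assigned to either gene with certainty. Gigyf2 itself had 39.6 and 42.0 CPM in TCRb-/- and 44.6 and 41.2 CPM in WT, a difference between experiments of -0.01.

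The other inward rectifiers did not pass. Kcnj10 and Kcnj16, which together form the potassium-buffering channel of astrocytes, had 12.0 to 15.1 CPM and 10.2 to 13.1 CPM over the 4 libraries, with differences of 0.20 and 0.27. Kcnj8, a gene of pericytes, had 1.21 to 1.60 CPM (-0.16). Kcnj3, Kcnj5, Kcnj6 and Kcnj9 encode the channels opened by G protein-coupled receptors, with differences of -0.25, 0.34, 0.13 and 0.20. The Kcnj5 difference was as large as that of the called Kcnab2 (-0.33). Exons of Gm26794 overlap 31.1% of the merged exon length of Kcnj3 on the other strand.

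Kcnk2 and Kcnk3 were the K2P genes that passed, in opposite directions. Kcnk2, a leak channel opened by stretch and heat, had 43.8 and 22.0 CPM in TCRb-/- and 36.8 and 28.3 CPM in WT, and fell by 0.66 on the log2 scale (SE 0.14, adjusted p = 0.0152 in limma). Kcnk3, a leak channel closed by acid, had 16.8 and 24.3 CPM in TCRb-/- and 17.1 and 22.5 CPM in WT, and rose by 0.44 (SE 0.10, adjusted p = 0.0221 in limma). The experiments did not overlap in either gene. Kcnk1, the most abundant K2P gene, had 118 to 124 CPM over the 4 libraries, a difference of 0.03. Without TCRb-/- replicate 1 the call for Kcnk2 was lost (-0.54), and the call for Kcnk3 was lost without TCRb-/- replicate 1 (0.43), TCRb-/- replicate 2 (0.39) or WT replicate 1 (0.45).

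In the calcium-activated class Kcnma1 and Kcnt1 fell. Kcnma1 had 68.8 and 44.5 CPM in TCRb-/- and 70.4 and 42.3 CPM in WT, for a log2 difference of -0.67 (SE 0.07, adjusted p = 0.00416 in limma). Kcnt1 had 68.3 and 33.6 CPM in TCRb-/- and 63.7 and 37.8 CPM in WT, a difference of -0.87 (SE 0.09, adjusted p = 0.00386 in limma), the smallest adjusted p of the 79. The small-conductance genes, which shape the pause after a spike, did not pass: Kcnn2 had 32.6 and 23.5 CPM in TCRb-/- and 26.9 and 21.2 CPM in WT (-0.39), and Kcnn3 had 13.3 to 14.0 CPM (0.01). With genotype as a second term limma called 34 Kcn genes, adding Kcnn2, Kcnd1 and Kcnmb4, so that 28 were lower and 6 higher. In that fit 24.7% of all genes were called, 15.4% lower and 9.29% higher.

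The accessory genes were evenly split. Kcnip genes encode the partners of the Kcnd channels, and all 4 passed: Kcnip2 (-0.67) and Kcnip3 (-0.61) fell, and Kcnip1 (0.39) and Kcnip4 (0.37) rose. Kcnip2 had 376 and 186 CPM in TCRb-/- and 311 and 249 CPM in WT, and Kcnip1 had 144 and 197 CPM in TCRb-/- and 149 and 187 CPM in WT. The experiments did not overlap in any of the 4. Kcnab1 (-0.80) and Kcnab2 (-0.33), partners of the Kcna channels, fell, while Kcnab3 did not pass (0.13). Kcnmb2, a partner of the Kcnma1 channel, rose by 0.61, with 4.27 and 7.70 CPM in TCRb-/- and 4.46 and 6.75 CPM in WT. Without TCRb-/- replicate 1 the calls for Kcnip2 (-0.53), Kcnip4 (0.25) and Kcnmb2 (0.59) were lost. Without TCRb-/- replicate 2 those for Kcnip4 (0.29) and Kcnmb2 (0.53) were lost, and without WT replicate 1 that for Kcnmb2 (0.64). With a pseudocount of 5 CPM Kcnmb2 was called at 0.38.

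Kcne2, a subunit that the choroid plexus epithelium pairs with pore subunits, on chromosome 16 from 92292389 to 92298129, rose with Kcnj13. It had 8.09 and 26.1 CPM in TCRb-/- and 4.01 and 14.6 CPM in WT, with 6.05 ± 2.89 and 20.3 ± 8.09 CPM in experiments 1 and 2 (SD, n = 2) and a log2 difference of 1.61 (SE 0.32, adjusted p = 0.0138 in limma). The experiments did not overlap. The call was lost without WT replicate 1 (1.18, adjusted p = 0.0532 in limma) and without the trend (adjusted p = 0.0634).

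Of the 25 genes that fell, 21 were lowest in TCRb-/- replicate 2 and 4 in WT replicate 2, and the change was larger between the TCRb-/- libraries than between the WT libraries in 22. All 6 genes that rose were highest in TCRb-/- replicate 2. Some marker lists also differed between the experiments. Others had medians near 0, among them septum (0.06), astrocyte (0.04), oligodendrocyte (-0.04) and microglia (-0.07). Over all genes 14.7% were called lower and 8.95% higher. All 16 striatum markers were called lower in experiment 2 by limma, 11 of 12 choroid plexus markers were called higher, and 8 of 11 thalamus markers were called higher, with summed levels of 767 and 1801 CPM in TCRb-/- and 752 and 1239 CPM in WT. Of 12 cortex and hippocampus markers 7 were called lower, 0 higher and 5 did not pass, with sums of 878 and 634 CPM in TCRb-/- and 998 and 684 CPM in WT. Rasgrf1, which did not pass, made up 357 to 427 CPM of each sum. Neurod6 (-3.08), Slc17a7 (-2.79) and Neurod2 (-2.79) fell further than any striatum marker, of which Scn4b was lowest at -2.43. Of 15 septum markers 3 were called higher and 1 lower. Of 7 tested pericyte and smooth muscle markers 4 were called lower, Acta2 (-1.77), Tagln (-1.79), Myh11 (-1.07) and Vtn (-0.58), and the list summed to 71.8 and 32.0 CPM in TCRb-/- and to 63.4 and 36.1 CPM in WT. Among the other lists, 2 of 10 astrocyte, 1 of 9 oligodendrocyte and 1 of 9 microglia markers were called lower, 1 of 5 ependymal and 1 of 8 meningeal fibroblast markers higher, and 0 of 7 endothelial markers passed. The part of these regions and cell types in the Kcn differences was not tested.

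**Figure D4:**
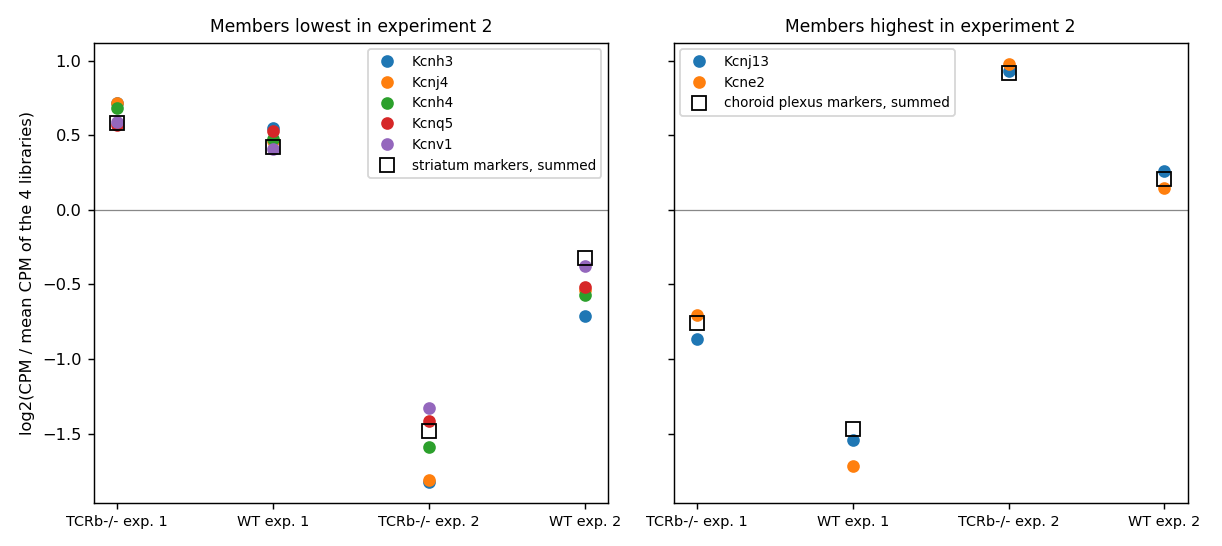
Level in each library relative to the mean of the 4 libraries (y axis, log2 of CPM over mean CPM, x axis the libraries by experiment), for the 5 Kcn genes with the lowest differences beside the sum of 16 striatum markers (left) and for Kcnj13 and Kcne2 beside the sum of 12 choroid plexus markers (right). In both panels the genes and the open squares of the markers take the same order of libraries, with TCRb-/- experiment 2 lowest on the left and highest on the right. Other marker lists, that of cortex and hippocampus among them, are not drawn.

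Between the genotypes, limma called 0 of 79 Kcn genes (0.0% of all genes called), and 0 of the 79 had an unadjusted p under 0.05, against 43 of 13912 genes (0.309%). With the experiment as a block, limma called 0 Kcn genes and 2 of all genes (0.0144%), and 7 Kcn genes (8.86%) had an unadjusted p under 0.05, against 5.64% of all genes. The fit without the block counts the difference between experiments as spread, so its lack of calls says little. For Kcne2 the SE was 0.71 without the block and 0.13 with it. With 2 libraries against 2, p = 0.333 is the smallest that an exact permutation test of 1 value allows. Leaving out TCRb-/- replicate 1 gave 2 Kcn calls, Kcnh3 (-1.68, adjusted p = 0.0240) and Kcnj4 (-1.65, adjusted p = 0.0200) in limma, where the lone remaining TCRb-/- library was the one that stood apart. Class medians by genotype lay between -0.09 (voltage-gated) and 0.07 (non-coding), with K2P genes at 0.04, beside 0.00 over all genes.

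Kcnj13 and Kcne2 had the highest differences between genotypes. Within experiment 1, TCRb-/- exceeded WT by 0.61 for Kcnj13 and by 0.86 for Kcne2 on the log2 scale, and within experiment 2 by 0.65 and 0.79. Neither passed with the experiment as a block (adjusted p = 0.362 and 0.271 in limma), and without the block the genotypes overlapped, since WT replicate 2 lay above TCRb-/- replicate 1. In each experiment the choroid plexus markers were also higher in the TCRb-/- library, and their part in this difference was not tested.

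Both TCRb-/- libraries lay beyond both WT libraries in 15 of 79 Kcn genes (19.0%), against 17.8% of all genes. They lay above in 6, against 9.76% of all genes, and below in 9, against 8.04%. Among those above, Kcng2, a silent subunit, had 37.6 and 40.8 CPM in TCRb-/- and 30.8 and 35.4 CPM in WT (0.24), and Kcnj9, a subunit of the receptor-opened rectifiers, had 59.0 and 72.3 against 54.4 and 58.8 CPM (0.20). Kcnmb1 (0.26), Kcnj6 (0.20) and Kcnh2 (0.17) were the others named by the rule. Among those below, Kcnb2, a delayed rectifier, had 12.1 and 8.81 CPM in TCRb-/- and 16.4 and 13.2 CPM in WT (-0.48). Kcnk9 (-0.34), Kcnu1 (-0.28) and Kcnh6 (-0.27) were also below, each with a mean under 5 CPM. All had an adjusted p of 1.00 in limma, and the smallest adjusted p among them with the block was 0.848. Their values moved with the library left out, for example from 0.048 to 0.29 for Kcnh2, from 0.060 to 0.35 for Kcnj9, from 0.14 to 0.34 for Kcng2, from -0.68 to -0.27 for Kcnb2 and from -0.52 to -0.17 for Kcnk9.

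The 5 genes with the lowest experiment differences did not hold one genotype direction. In experiment 1 Kcnh3, Kcnj4, Kcnh4, Kcnv1 and Kcnq5 were 0.17, 0.25, 0.19, 0.18 and 0.04 higher in TCRb-/- on the log2 scale. In experiment 2 the same genes differed by -1.06, -1.17, -0.84, -0.88 and -0.82. In all, 45 of 79 Kcn genes had opposite signs in the 2 experiments, 16 were higher in TCRb-/- in both and 18 lower in both. Over all genes 48.4% had opposite signs, 27.0% were higher in both and 24.5% lower in both, and in the Kcn genes those higher in both were 20.3% and those lower in both 22.8%. Across the tested Kcn genes the genotype difference had an SD of 0.23 in experiment 1 and 0.35 in experiment 2, and the difference between experiments an SD of 0.74 in TCRb-/- and 0.48 in WT.

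**Figure D5:**
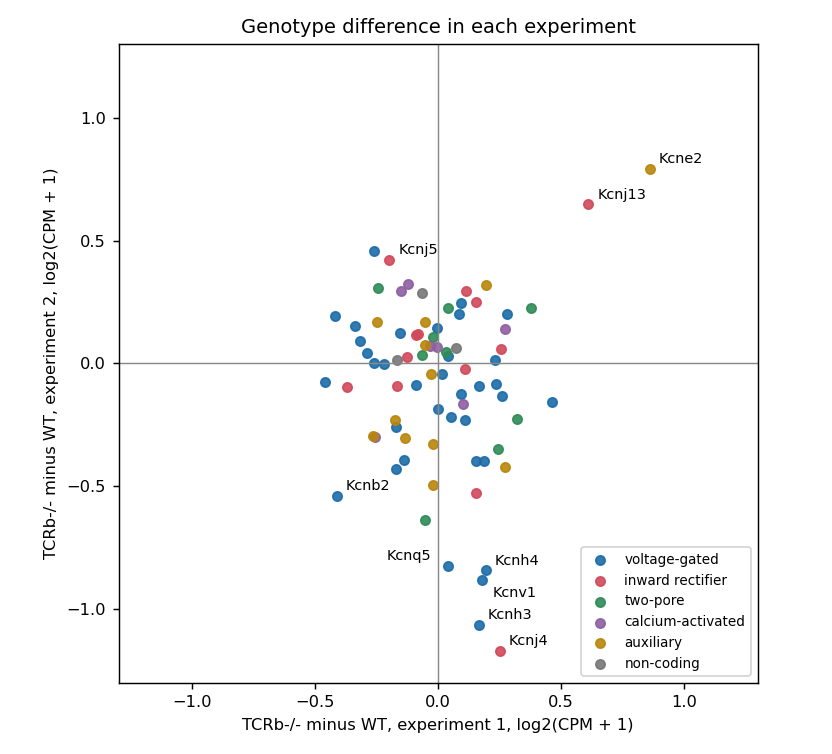
Genotype difference of each tested Kcn gene in experiment 1 (x axis) and experiment 2 (y axis), both TCRb-/- minus WT in log2(CPM + 1), coloured by class, with 1 library per genotype in each experiment and so no error. Kcnj13 and Kcne2 stand at the upper right, and Kcnh3, Kcnj4, Kcnh4, Kcnv1 and Kcnq5 lie near 0 on the x axis and between -0.82 and -1.17 on the y axis.

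Genes that work beside the channels were counted as lists. Of 19 tested channel partners, which anchor or modify potassium channels, 7 fell and 1 rose between experiments (median -0.20). The scaffolds Dlg1 (-0.72) and Dlg2 (-0.66) and the axonal proteins Adam23 (-0.55), Adam22 (-0.49) and Cntn2 (-0.40) were among those that fell. Of 14 potassium pump and cotransporter genes, 2 fell, the neuronal cotransporter Slc12a5 (-0.43) among them, and 3 rose, Fxyd1 (0.66), Fxyd7 (0.44) and Atp1b2 (0.36). Of 7 related cation channel genes of the Hcn and Cng families 0 passed (median 0.04). The called shares of the 3 lists were 42.1%, 35.7% and 0.0%, against 23.7% of all genes (14.7% lower and 8.95% higher). No list was tested against all genes. By genotype limma called 0 genes of the 3 lists.

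Kcnj13 and Kcnj4 are inward rectifiers that changed in opposite directions between experiments, and the 250 bases before their start sites are set side by side from RefSeq promoters (GRCm38.p6). Capitals mark TATAAA in the first and GGGCGG or its reverse complement CCGCCC in the second.
Kcnj13, chr1:87394730-87394979, minus strand: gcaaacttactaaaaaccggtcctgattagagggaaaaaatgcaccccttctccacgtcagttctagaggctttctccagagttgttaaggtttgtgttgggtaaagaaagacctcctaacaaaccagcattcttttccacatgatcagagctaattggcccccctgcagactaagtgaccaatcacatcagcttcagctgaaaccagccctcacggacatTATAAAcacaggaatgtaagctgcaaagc
Kcnj4, chr15:79505242-79505491, minus strand: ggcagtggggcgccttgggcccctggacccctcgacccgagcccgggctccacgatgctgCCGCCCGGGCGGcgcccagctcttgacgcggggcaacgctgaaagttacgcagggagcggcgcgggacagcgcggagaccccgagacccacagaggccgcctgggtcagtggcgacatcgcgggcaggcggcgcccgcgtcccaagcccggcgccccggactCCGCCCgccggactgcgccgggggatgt
The GC content was 45.2% for Kcnj13 and 77.2% for Kcnj4, beside a median of 52.4% over 32841 promoters. Kcne2, which also rose, had promoters at 52.4% and 48.0% GC, without TATAAA and the first with CCGCCC. RefSeq promoters matched 62 members, with 87 promoters in all and a median GC content of 58.8%. On either strand, GGGCGG was in 47.1% of member promoters and 32.7% of all promoters, and in 16 of 27 voltage-gated ones. TATAAA was in 3.45% of member promoters, all 3 of them of inward rectifiers, and in 12.4% of all promoters. TAATCC was in 1.15% against 6.25%, and TGACGTCA was in 0 of 87 member promoters against 1.55% of all. These are matches of letters in a fixed window, described without a test.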

How the data were processed

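RNA-seq of 4 pooled septal libraries was used. Per the submitters' processing notes, the tools named are HISAT2 2.1.0, SAMtools 1.3, HTSeq 0.9.1, R 4.0.5 and limma 3.46.0, with the build mm10, while the sources used here do not give their roles or the annotation. Per the labels' protocols, RNA came from a cleared, detergent-treated lysate and the SMARTer kit for ultra-low input was used for the libraries. The authors deposited 1 log2 value per gene and library. The deposited log2 values equal CPM with 0.5 added to the reads and 1 to the library total, and solving for the total gave whole reads for 100% of values within 0.001 reads. No count model was used. The deposited tables list genes with at least 10 reads in their highest library, so lower genes were not analysed here. The 17 ERCC spike-in rows were left out.

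Reads were expressed as CPM and tested as log2(CPM + 1), a scale on which changes of low genes look smaller, with limma 3.58.1 in R 4.3.3 (mean-variance trend, two-sided, Benjamini-Hochberg over the 13912 genes that averaged 1 CPM or more, threshold 0.05). Genotype or experiment was the only term. In the labels the replicate number stands for the experiment, which pairs the libraries. Deviations of same-numbered libraries from their genotype mean correlated at 0.72 across genes. The replicates of a genotype differed beyond counting error (chi-square per degree of freedom 53.0 and 30.7). Coordinates and exon lengths are from GENCODE M21 (GRCm38), where 84 of 84 members matched by symbol. Other steps used scipy 1.17.1, pandas 2.3.3 and numpy 2.4.6 in Python 3.11.15, and figures matplotlib 3.10.9.

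The members, marker lists and partner lists were chosen with earlier results of these data known. Genes given with values were, per class, the 3 highest and the lowest per length, the 5 highest and 5 lowest called between experiments, up to 5 in each direction by genotype among genes whose libraries did not overlap, and 20 listed genes. Other genes with values were chosen after their values were seen. Some genes that the rule names are not reported here. Alternatives were pseudocounts of 0.1 and 5 CPM, no filter and a filter at 10 CPM, median-of-ratios and quantile scaling, no trend, voom weights, the replicate block, and each library left out. Intervals for single counts are not printed, and the reads are not independent molecules.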

Additional observations from a re-analysis of the deposited data

Results flagged for a closer look

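Kcnn4, which encodes an intermediate-conductance calcium-activated channel, was listed because its genotype difference had opposite signs in the experiments. It was 0.35 higher in TCRb-/- in experiment 1 and differed by -0.37 in experiment 2 (TCRb-/- minus WT, log2(CPM + 1)). The TCRb-/- libraries had 1.10 CPM (27 reads) in experiment 1 and 0.600 CPM (12 reads) in experiment 2. The WT libraries had 0.649 CPM (17 reads) and 1.07 CPM (24 reads). The difference between the experiments was not tested, and the gene was below the filter on low values.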

How the results depend on the processing

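Between genotypes the count of called genes was 0 in limma, and 0 under pseudocounts of 0.1 and 5 CPM, a filter at 10 CPM or none, median-of-ratios and quantile scaling, no trend and voom weights. It was 2 with the replicate block, and 0 to 47 with a library left out, the highest without TCRb-/- replicate 1 (1 without TCRb-/- replicate 2). For the Kcn genes it was 0 to 2 with a library left out and 0 in the other settings, the replicate block included. Between experiments the count was 3292 over all genes and 31 for the Kcn genes. It was 629 and 9 with no trend, and ran from 1406 to 3390 and from 20 to 34 with a library left out (1406 without TCRb-/- replicate 1, 1823 without TCRb-/- replicate 2, 1637 without WT replicate 1). The replicate block, here genotype as a second term, gave 3437 and 34, within 1.5 times of the reported counts. Apart from the settings named here, the Kcn count was 30 or 31. The cause of these changes was not tested, beyond the fewer libraries of a fit with 1 left out.

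The difference by genotype changed sign in 30 of 44 named genes when a library was left out. These fits have genotype as the only term, so a library left out unbalances the experiments and their difference enters that by genotype. Within each experiment 8 of the 30 kept 1 sign, namely Kcna2, Kcnab2, Kcnd2, Kcnd3os, Kcnf1, Kcnj13, Kcnn2 and Kcnq3. Over the 4 fits with a library left out, the log2 differences were, as lowest to highest, Kcna1 -0.30 to 0.43, Kcna2 -0.42 to 0.20, Kcnab2 -0.21 to 0.14, Kcnc1 -0.13 to 0.21, Kcnc2 -0.41 to 0.18, Kcnd2 -0.18 to 0.25, Kcnd3os -0.049 to 0.18, Kcnf1 -0.27 to 0.52, Kcnh3 -1.68 to 0.78, Kcnh4 -1.32 to 0.67, Kcnh8 -0.26 to 0.036, Kcnip1 -0.21 to 0.24, Kcnip2 -0.58 to 0.43, Kcnip4 -0.33 to 0.25 and Kcnj10 -0.14 to 0.17. They were Kcnj13 -0.23 to 1.49, Kcnj16 -0.13 to 0.21, Kcnj4 -1.65 to 0.73, Kcnj8 -0.17 to 0.069, Kcnk13 -0.12 to 0.088, Kcnk2 -0.53 to 0.43, Kcnk3 -0.21 to 0.30, Kcnma1 -0.34 to 0.38, Kcnmb2 -0.30 to 0.42, Kcnn2 -0.022 to 0.43, Kcnq1ot1 -0.034 to 0.26, Kcnq3 -0.50 to 0.071, Kcnq5 -1.32 to 0.54, Kcnt1 -0.53 to 0.47 and Kcnv1 -1.26 to 0.56 for the others. In the genes chosen because the genotypes did not overlap the sign cannot change in this way, which is no sign of stability. Between experiments 8 of 54 genes changed sign, all of them not called, with Kcnh6 -0.16 to 0.23, Kcnh8 -0.25 to 0.064, Kcnk9 -0.26 to 0.38, Kcnmb1 -0.12 to 0.20, Kcnmb4os2 -0.086 to 0.083, Kcnn3 -0.020 to 0.047, Kcnq1ot1 -0.032 to 0.26 and Kcnu1 -0.062 to 0.24. Kcnmb4os2 was also at 0.021 with median-of-ratios scaling and 0.032 with quantile scaling, against -0.0015 as reported. With 2 pools per group, the number of pools limits the precision, and for members near 1 CPM the few reads do as well.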
